A study of Mus musculus with 43 samples.

Results

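The Snrp, Srsf and Lsm genes of the mouse encode proteins of the splicing machinery and of related RNA complexes, and their RNA was followed here in brain endothelial cells. Members were taken by symbol: Snrp followed by a letter from a to g or a digit, Srsf followed by a digit, or Lsm followed by a digit, with processed copies marked -ps left out. This gave 36 of the 54532 genes in the count table, and all 36 passed the filter on low counts that 29120 genes passed. The libraries were made from cells sorted as CD45-, CD11b- and CD31+ from cortex or hippocampus of mice aged 2 months. The 43 libraries came from 31 samples of the long-inbred strains 129S1/SvImJ (9), A/J (5), C57BL/6J (6), DBA/2J (5) and NOD/ShiLtJ (6) and from 12 samples of the wild-derived strains CAST/EiJ (6) and WSB/EiJ (6). No mouse carried a transgene or treatment according to the labels, 27 libraries came from males and 16 from females, and 21 came from cortex and 22 from hippocampus. Each sample title also holds the word high or low, which the sources used here do not define, and it was used as a bare tag in the male libraries (14 high, 13 low). The sexes were not compared. Since the mouse behind each library is not given, p-values measure the spread between libraries, which may be technical in part.

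As background, introns are removed by the spliceosome, whose small nuclear ribonucleoproteins (snRNPs) each hold a small nuclear RNA wrapped by a ring of 7 proteins. In the U1, U2, U4 and U5 particles the ring is made of Sm proteins, and in the U6 particle it is made of the related Lsm proteins. SR proteins, with a domain rich in arginine and serine, bind exons in the pre-mRNA, help to recruit the snRNPs and so bear on which exons are kept. Every nucleated cell uses these genes, and in endothelial cells alternative exons occur in genes of adhesion and matrix. By role the members were the Sm ring (7 genes), proteins particular to the U1 and U2 particles (4), SR proteins (11), Lsm rings (8), Sm-like proteins of the U7 particle (2), and Lsm12, Lsm14a and Lsm14b (3). The last member, Snrpert, is annotated as a processed pseudogene, and it is a copy of Snrpe, which encodes the E protein of the Sm ring.

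Some members share much of their sequence with other genes, and reads from either can be hard to tell apart. Over all libraries Snrpert received 1689 counts, against 6610 for Snrpe (25.55%). In all, 13 of the 36 genes had a copy elsewhere that matched at least 100 bases at 98% identity or more. The copies of Lsm7 (Gm13182 and Gm10146) held 67.64% as many counts as Lsm7 itself, that of Srsf5 (Gm12966) 8.216% and that of Lsm12 (Gm9727) 5.91%, and the values of Snrpe, Snrpert and Lsm7 are therefore uncertain. Reads of Lsm3 and Snrpa1 may also be shared with an overlapping gene on the same strand, and Lsm14a, Snrpa, Snrpd3, Snrpf, Srsf1, Srsf2 and Srsf4 overlap exons of a gene on the opposite strand, whose reads stay apart only if strand was used in the counting.

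Library totals ran from 1626534 to 49372356 counts (median 5790701), and genes of ribosomal RNA type took 1.59% to 29.3% of them. The 20 endothelial markers were present throughout, with a summed level of 18762 to 40150 CPM (counts scaled to a common library size with TMM factors) and no marker at 0 in every library. RNA of astrocyte markers was also present, with 10 genes summing to 1341 to 19865 CPM. This list includes S1pr1 and Gja1, which are not particular to astrocytes, so here and below part of the sum may come from endothelial cells. The 36 genes together took 0.0712% to 0.273% of the counts. In such bulk samples fewer cells of a type and less RNA per cell cannot be told apart.

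SR proteins gave most of the counts of these families, in sums that were not divided by gene length and so do not rank the roles by number of transcripts. Their 11 genes summed to 739 ± 239 CPM (SD, n = 43), against 172 ± 37.3 CPM for Lsm12, Lsm14a and Lsm14b, 154 ± 95.5 CPM for the 7 genes of the Sm ring, 78.1 ± 46.2 CPM for the 8 genes of the Lsm rings, 68.98 ± 37.1 CPM for the 4 U1 and U2 genes and 10.2 ± 6.8 CPM for the 2 U7 genes. To compare genes with each other, levels were divided by the length of the exons and are given as CPM per kb.

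In the Sm ring, Snrpf, which encodes the F protein, had the highest mean level, 47.5 ± 55.9 CPM per kb, and was the highest of its role in 23 of 43 libraries. Snrpb, which encodes the B proteins of the ring, followed at 26.9 ± 13.9 CPM per kb and was the highest in 18. The order of these means turned over the 27 male libraries alone, with 21.1 CPM per kb for Snrpf and 24.6 CPM per kb for Snrpb. The other 5 ring genes had means of 4.09 CPM per kb (Snrpd2) to 8.34 CPM per kb (Snrpd1). In the assembled ring each of these proteins occurs once. Among the U1 and U2 genes, Snrpa (the U1 A protein) had the highest mean, 9.44 ± 5.04 CPM per kb, and led in 33 libraries, whereas Snrpc (the U1 C protein) was lowest at 2.22 ± 1.71 CPM per kb.

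Of the SR genes, Srsf5 had the highest mean level per length, 42.6 ± 26.2 CPM per kb, and led its role in 24 libraries, followed by Srsf4 with 30.1 ± 10.3 CPM per kb, which led in 12. Srsf9 (25.2 CPM per kb), Srsf2 (18.5 CPM per kb) and Srsf1 (14.5 CPM per kb) came next, and Srsf12 was lowest at 0.534 ± 1.38 CPM per kb, without a count in 26 of 43 libraries. Neighbours in the order of all 36 genes often did not differ beyond their spread. Snrpf was above Srsf5 in only 18 of 43 libraries although its mean was higher, and Srsf5 was above Srsf4 in 30.

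The Lsm ring genes were low. Lsm5 had the highest mean of the 8, 14.9 ± 25.5 CPM per kb, carried by a few libraries: its median was 5.37 CPM and its highest value 93.8 CPM. Over the 27 male libraries alone its mean was 5.01 CPM per kb, below those of Lsm4 (8.46 CPM per kb) and Lsm6 (6.07 CPM per kb). Over all libraries Lsm4 (7.87 CPM per kb) and Lsm6 (7.13 CPM per kb) followed, and Lsm1 (1.72 CPM per kb) and Lsm8 (1.41 CPM per kb) were near the bottom. Lsm1 belongs to the cytoplasmic ring that acts in mRNA decay with the decapping enzyme, and Lsm8 takes its place in the nuclear ring on U6. Both genes of the U7 particle, which processes the 3′ ends of histone mRNAs, were low as well, with 2.17 ± 3.02 CPM per kb for Lsm10 and 1.27 ± 1.05 CPM per kb for Lsm11. Lsm14a, whose protein is found in the cytoplasmic P-bodies that hold repressed mRNAs, was high and even across libraries, with 17.9 ± 4.64 CPM per kb and a coefficient of variation of 25.9%, and it led its role in 29 libraries.

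**Figure D1:**
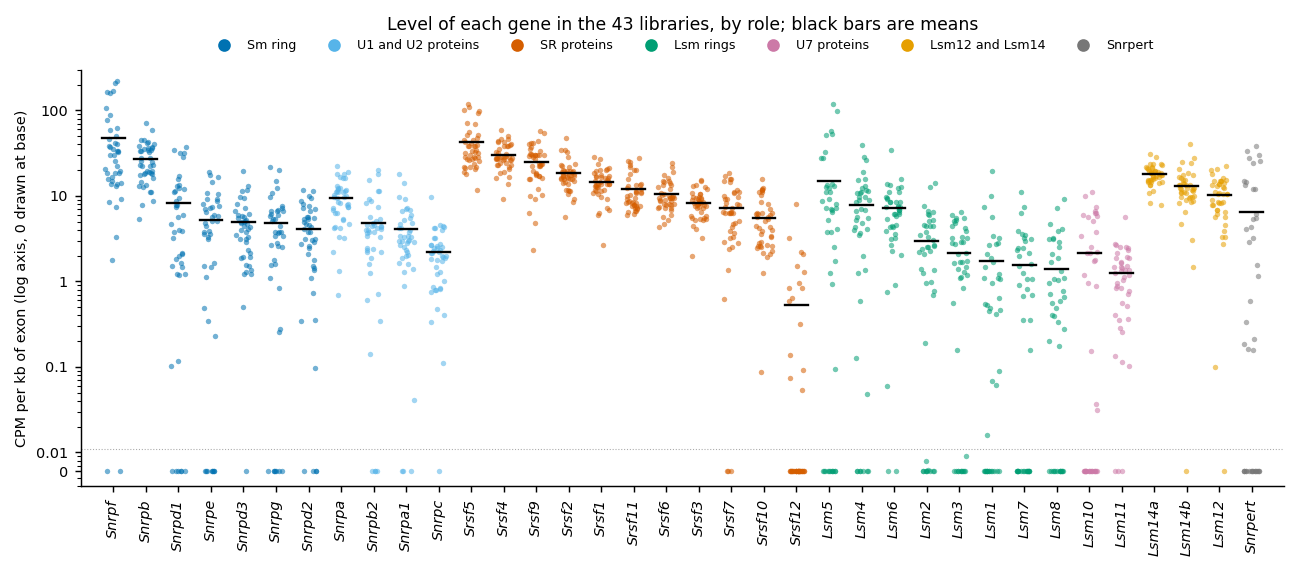
Level of each of the 36 genes in CPM per kb of exon (log axis, 0 drawn at the base), with a point per library (43) and a black bar at the mean, coloured by role. SR genes other than Srsf12 sit well above 0 in almost every library, whereas most Lsm ring genes, Lsm10, Srsf12 and Snrpert have many libraries at 0.

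Many members were without a count in part of the libraries. Only 12 of 36 genes had a count in every library, namely 9 of the 11 SR genes, Snrpb, Snrpa and Lsm14a. Each of the 8 Lsm ring genes was at 0 in 2 (Lsm6) to 17 (Lsm7) libraries, with a median of 10.5. Per library 0 to 16 of the 36 genes were at 0 (median 4). The most were found in the male WSB/EiJ hippocampus library tagged high, the shallowest of all with 1626534 counts (16 genes), and next in the male WSB/EiJ cortex library tagged high with 2327180 counts (12 genes) and a male C57BL/6J library (12 genes). In the shallowest library 3 counts correspond to 1.84 CPM, and in the deepest to 0.0537 CPM, so in a shallow library a 0 allows for a low level that counting would not show. Zeros were not confined to shallow libraries. The female 129S1/SvImJ cortex library titled low, with 27702669 counts, had 7 genes at 0, among them Srsf7, whose mean over all libraries was 25.4 CPM. Between male libraries the SD of a member was 3.69 (Srsf12) to 7.47 (Snrpb) times what counting alone gives. The levels given for 3 counts cover counting error only and leave out this wider spread between libraries.

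**Figure D2:**
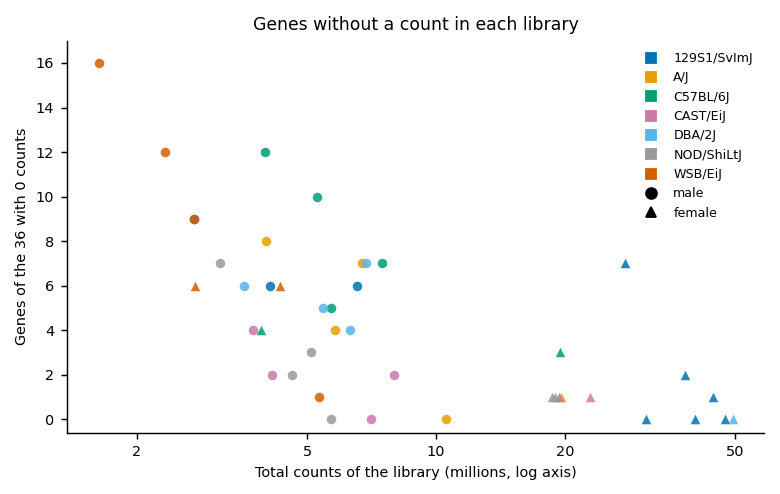
Number of the 36 genes with 0 counts in each library against the library's total counts (log axis), coloured by strain, with circles for male and triangles for female libraries. The 2 shallowest libraries, both male WSB/EiJ, have 16 and 12 genes at 0, and a male WSB/EiJ and a male 129S1/SvImJ library coincide at 9 genes.

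The 12 libraries of the wild-derived strains (CAST/EiJ and WSB/EiJ) were compared with the 31 libraries of the long-inbred strains. The test was edgeR's quasi-likelihood test over all 29120 genes with Benjamini-Hochberg adjustment. Libraries of the same strain entered as separate samples, so its p-values do not measure the spread between strains. None of the 36 genes passed an adjusted p of 0.05, while 0.749% of all genes did (218 genes), and 0 members against 7.01% of all genes had an unadjusted p under 0.05. DESeq2 also called 0 members, with 1 at an unadjusted p under 0.05. For DESeq2 the share of all genes at that unadjusted level was not taken, here or in the comparisons below. The fitted difference was below 0 in the wild-derived strains for 28 genes and above 0 for 8, with a median of -0.13 (log2), beside -0.38 over all genes tested. Genes of similar level were taken as the 5681 with a mean of 8.03 to 44.0 CPM, the range between the members' quartiles. Their median was -0.02, 0.951% of them were called and 10% had an unadjusted p under 0.05. Beside these genes the members' median was thus the lower one. By role, fitted values were below 0 for 8 of 8 Lsm ring genes, 4 of 4 U1 and U2 genes, 10 of 11 SR genes and 5 of 7 Sm ring genes, and above 0 for Lsm12, Lsm14a and Lsm14b.

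Snrpf had the smallest p. It ranged from 0 to 91.1 CPM (median 20.8) in the wild-derived and from 1.53 to 190.6 CPM (median 25.8) in the long-inbred libraries, with means of 25.5 ± 25.5 and 46.8 ± 53.7 CPM. The groups overlapped over nearly the whole range, and the log2 difference was -0.87 (SE 0.47, adjusted p = 0.749 by edgeR). For Srsf6, an SR protein of exonic enhancers, values were 25.2 to 64.6 CPM (median 40.3) in wild-derived and 21.1 to 118.1 CPM (median 47.4) in long-inbred libraries. In 10 of 12 wild-derived libraries Srsf6 lay below the long-inbred median, and the log2 difference was -0.40 (SE 0.22, adjusted p = 0.754). For Lsm8, of the nuclear ring, the means were 2.55 and 7.24 CPM and the log2 difference -1.52 (SE 0.88, adjusted p = 0.754). Over the alternatives run, the log2 difference of Lsm8 went from -2.56 (counts summed per strain) to -0.34 (male libraries only), that of Snrpf from -1.19 (counts summed per strain) to -0.26 (with the share of ribosomal RNA as a covariate) and that of Srsf6 from -0.64 to -0.23.

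In the other direction, Lsm14a averaged 125 CPM in wild-derived and 104 CPM in long-inbred libraries, a log2 difference of 0.27 (SE 0.16, adjusted p = 0.754), and lay above the long-inbred median in 10 of 12. The 95% interval of this fold ran from 0.971 to 1.501, and the log2 difference was 0.46 in cortex only and 0.057 in hippocampus only. Snrpd2, which encodes the D2 protein of the Sm ring, averaged 14.7 against 9.17 CPM (log2 0.69, SE 0.52, adjusted p = 0.754). Its level differed between the wild-derived strains themselves, with 23.5 ± 6.78 CPM in CAST/EiJ (n = 6) and 5.94 ± 5.50 CPM in WSB/EiJ (n = 6), and without CAST/EiJ the log2 difference was -0.62 (1.36 in cortex only). Lsm14b averaged 42.5 against 36.1 CPM (log2 0.23, SE 0.31, adjusted p = 0.767), and its difference was -0.26 without WSB/EiJ and 0.59 without CAST/EiJ.

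Lsm6, a subunit of both Lsm rings, showed a like split of the wild-derived strains. In WSB/EiJ it was 0 in both male libraries tagged high, 17.7 and 14.7 CPM in both male libraries tagged low, and 0.244 and 3.03 CPM in the female libraries, whereas the 6 CAST/EiJ libraries held 38.8 ± 11.8 CPM and the long-inbred libraries 31.7 ± 24.9 CPM (lowest 3.65). With CAST/EiJ left out, Lsm6 was called lower (log2 -2.40, SE 0.63, adjusted p = 0.0438, edgeR), in a fit in which 0.848% of all genes were called. Once the shallowest library was left out as well it was not called (log2 -2.17, SE 0.65, adjusted p = 0.117). Both fits compare only WSB/EiJ with the long-inbred strains, and the second was added after seeing the data. Markers of mural cells also differed between these strains. The 10 pericyte markers summed to 2161 to 3108 CPM in the 6 CAST/EiJ and 5242 to 9756 CPM in the 6 WSB/EiJ libraries, and the mean log2 level of the 10 smooth muscle markers was 4.80 and 3.58. Their part in the values of Lsm6 and Snrpd2 was not tested.

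Between hippocampus (22) and cortex (21), again 0 of 36 members passed an adjusted p of 0.05 in edgeR, beside 0.0755% of all genes (22 genes). At an unadjusted p under 0.05 there were 2 members, beside 5.6% of all genes, and DESeq2 called 0 members, with 3 at an unadjusted p under 0.05. Fitted values were above 0 in hippocampus for 24 genes and below 0 for 12, with a median of 0.12 (log2) beside 0.03 over all genes. Over the genes of similar level the median was 0.0067, and 4.45% had an unadjusted p under 0.05 in edgeR. All 7 Sm ring genes (median 0.28) and all 4 U1 and U2 genes (median 0.36) had values above 0, against 3 of 8 Lsm ring genes. Summed endothelial markers ran from 18762 to 40150 CPM (median 29092) in hippocampus and from 18773 to 33426 CPM (median 23927) in cortex, whereas over male libraries alone the medians were 21564 and 22825 CPM. Summed astrocyte markers had medians of 3277 and 4891 CPM, oligodendrocyte markers (8 genes) of 130 and 95.1 CPM, and choroid plexus markers (6 genes) of 11.3 and 5.08 CPM. The part of these cells in the member values was not tested.

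Snrpb carried the smallest p of this comparison. It ranged from 10.5 to 141.4 CPM (median 66.3) in hippocampus and from 15.5 to 88.6 CPM (median 36.5) in cortex. In 19 of 22 hippocampus libraries it lay above the cortex median, and the means were 64.0 ± 29.6 and 41.8 ± 20.1 CPM. The log2 difference was 0.62 (SE 0.22, 95% interval 0.18 to 1.05) with an unadjusted p of 0.00587 and an adjusted p of 0.654 in edgeR. With edgeR's default deviances, a setting under which 27.55% of all genes were called, its adjusted p was 0.0378. Srsf2, an SR protein of nuclear speckles, averaged 60.9 against 48.1 CPM (log2 0.34, adjusted p = 0.669), with 18 of 22 hippocampus libraries above the cortex median, and Lsm8 averaged 8.30 against 3.44 CPM (log2 1.25, adjusted p = 0.669). Without 129S1/SvImJ the log2 difference was 0.41 for Snrpb and 2.41 for Lsm8.

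Lsm1 was the lead gene with the lower value in hippocampus, 2.34 against 8.42 CPM (log2 -1.84, SE 0.80, adjusted p = 0.669). Its cortex mean rested on a few libraries, the highest at 60.5 CPM, and it was at 0 in 14 of all 43. Lsm6 (24.98 against 33.4 CPM, log2 -0.42) and Srsf12 (0.945 against 2.45 CPM, log2 -1.35) followed with adjusted p of 0.682 and 0.72. The log2 difference of Lsm1 was -0.68 in male libraries only, that of Lsm6 -0.18 in libraries titled high only and that of Srsf12 -0.76 without 129S1/SvImJ. For evenly expressed members the intervals were narrow: the fold of Lsm14a between the regions had a 95% interval of 0.814 to 1.22, and that of Srsf1, which acts in constitutive and alternative splicing, of 0.797 to 1.32.

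**Figure D3:**
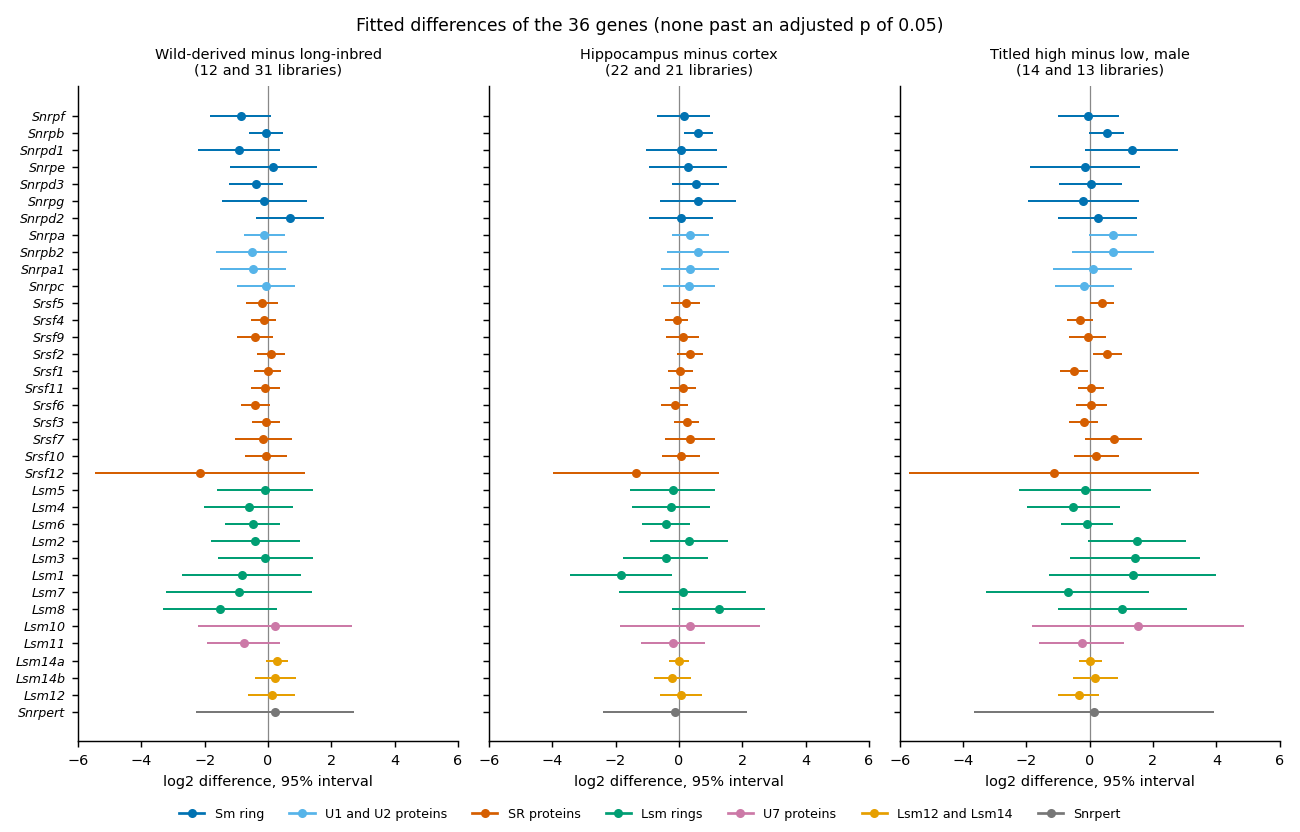
Fitted log2 difference of each of the 36 genes, with its 95% interval, for wild-derived minus long-inbred, hippocampus minus cortex, and male libraries titled high minus low, coloured by role. No gene passed an adjusted p of 0.05 in any panel, and intervals are narrowest for Lsm14a and the abundant SR genes and widest for Srsf12.

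In male libraries the tag in the title was compared, 14 high against 13 low. Of the 36 members 0 were called by edgeR, beside 0.958% of all genes (279 genes), and 5 had an unadjusted p under 0.05 beside 7.68% of all genes. DESeq2 called 1, Srsf2 (log2 0.56, adjusted p = 0.0476), in a fit that called 2.191% of all genes, and had 4 members at an unadjusted p under 0.05. Fitted values were above 0 in the high libraries for 21 genes and below 0 for 15, with a median of 0.05 (log2) beside 0.00 over all genes. Over the genes of similar level the median was 0.08, and 11% had an unadjusted p under 0.05 in edgeR. The 5 genes were SR and snRNP genes, and Srsf1 had the opposite sign to Srsf2, Srsf5, Snrpa and Snrpb.

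Srsf2 ranged from 30.8 to 139.5 CPM (median 57.1) in the high and from 27.5 to 59.9 CPM (median 46.1) in the low libraries. In 12 of 14 high libraries it was above the low median, with means of 65.5 ± 28.7 and 45.1 ± 9.30 CPM, and the log2 difference was 0.56 (SE 0.22, adjusted p = 0.364 by edgeR). Srsf5 averaged 135 against 104 CPM (log2 0.38, SE 0.18, adjusted p = 0.576) and Snrpa 27.7 against 16.8 CPM (log2 0.73, SE 0.36, adjusted p = 0.631). Snrpb averaged 56.8 against 39.7 CPM (log2 0.53, SE 0.26, adjusted p = 0.638). Srsf1 was the lead gene with a lower mean in the high libraries, 62.7 against 88.7 CPM (log2 -0.49, SE 0.21, adjusted p = 0.464), and lay below the low median in 10 of 14. Srsf4 (84.8 against 106 CPM, log2 -0.31) and Lsm12 (24.0 against 30.9 CPM, log2 -0.36) had adjusted p of 0.683. The log2 difference of Srsf4 was -0.08 in cortex only and -0.58 in hippocampus only, and that of Snrpa 1.17 and 0.44. For Lsm12 it was -0.55 without CAST/EiJ, and for Srsf5 it was 0.25 without A/J.

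Markers of other cell types moved with the tag. The 8 neuron markers summed to 177 to 690 CPM (median 261) in the high and 374 to 1046 CPM (median 637) in the low libraries, and the 10 astrocyte markers to medians of 3660 and 5415 CPM, with highest values of 7648 and 19865 CPM. The 8 oligodendrocyte markers had medians of 46.9 and 140 CPM (18.3 to 164 and 36.1 to 195 CPM), and the 10 pericyte markers of 3905 and 6863 CPM. The 20 endothelial markers summed to 19235 to 30965 CPM (median 29251) and 18762 to 25272 CPM (median 21423), and no marker of these lists was at 0 throughout either group. Their part in the member values was not tested.

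The male libraries of the 7 strains (3 of 129S1/SvImJ and 4 of each other strain) were then compared. In the test for any difference among strains, 0 of 36 members were called by edgeR, beside 1.65% of all genes (480 genes). At an unadjusted p under 0.05 there were 5 members, beside 6.58% of all genes and 8.59% of the genes of similar level. DESeq2 called 2 members, Lsm5 (adjusted p = 0.00437) and Srsf6 (adjusted p = 0.0106), beside 3.197% of all genes, and had 8 at an unadjusted p under 0.05. Without the share of all genes at that unadjusted level, the 8 cannot be read as an excess. For no member did the libraries of a strain stand apart from all other male libraries. Of the 21 pairs of strains, those without overlap were most numerous for Lsm6 (7 pairs) and Snrpb (6), followed by Snrpf, Srsf5 and Srsf6 (5 each), and 20 members had none. Such pairs were not counted for genes outside the 36, so these counts cannot show whether the members differ from other genes.

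Lsm5, of both Lsm rings (chromosome 6, 56701063 to 56704710, minus strand, mm10), had the smallest p (0.00435, adjusted p = 0.174 by edgeR). It was at 0 in all 3 male 129S1/SvImJ and all 4 male DBA/2J libraries. A level of 3 counts in these libraries correspond to 0.436 to 1.24 CPM and 0.425 to 0.764 CPM. It was found in all 4 A/J libraries (8.89, 1.98, 3.22 and 7.20 CPM) and all 4 CAST/EiJ libraries (2.99, 1.39, 10.4 and 5.37 CPM). The C57BL/6J libraries held 8.74, 22.2, 5.78 and 0 CPM, the NOD/ShiLtJ libraries 2.96, 0, 10.9 and 9.96 CPM, and the WSB/EiJ libraries 1.01, 4.19, 0 and 0 CPM. Male 129S1/SvImJ and DBA/2J libraries were thus the only strain groups without any Lsm5 count. The female libraries of these strains did hold it, at 45.3 CPM in DBA/2J and at 0.075 to 78.2 CPM in the 6 of 129S1/SvImJ, and with all 43 libraries and sex as a covariate the p for strain was 0.442. Its 2 pseudogene copies, Gm10074 and Gm7846, held 0.297% as many counts as Lsm5. Of the other members, Lsm10 was at 0 in all male C57BL/6J and all male WSB/EiJ libraries, and Snrpert in all male C57BL/6J libraries.

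Snrpb was next (adjusted p = 0.457). Its male means were highest in C57BL/6J, with 54.3, 39.1, 76.5 and 116 CPM, and lowest in WSB/EiJ, with 36.6, 10.5, 35.9 and 25.8 CPM, and in DBA/2J, with 26.2, 35.1, 37.3 and 15.5 CPM. All C57BL/6J libraries were above all WSB/EiJ and DBA/2J libraries. Snrpf (adjusted p = 0.588) was 11.9, 0, 2.82 and 0 CPM in WSB/EiJ and 16.7, 22.2, 30.2 and 28.7 CPM in CAST/EiJ, which did not overlap. Lsm6 (unadjusted p = 0.034 by edgeR, not called) was 30.2, 39.9 and 51.8 CPM in 129S1/SvImJ and 44.9, 27.5, 34.8 and 44.8 CPM in CAST/EiJ, against 17.5, 18.8, 9.20 and 8.27 CPM in C57BL/6J. Lsm4 (adjusted p = 0.711) reached 40.9 CPM in A/J and at most 1.41 CPM in WSB/EiJ. Snrpa (adjusted p = 0.889) was lowest in DBA/2J, with 12.6, 3.89, 2.07 and 12.5 CPM, and highest in NOD/ShiLtJ, with 33.4, 21.3, 49.1 and 53.1 CPM.

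**Figure D4:**
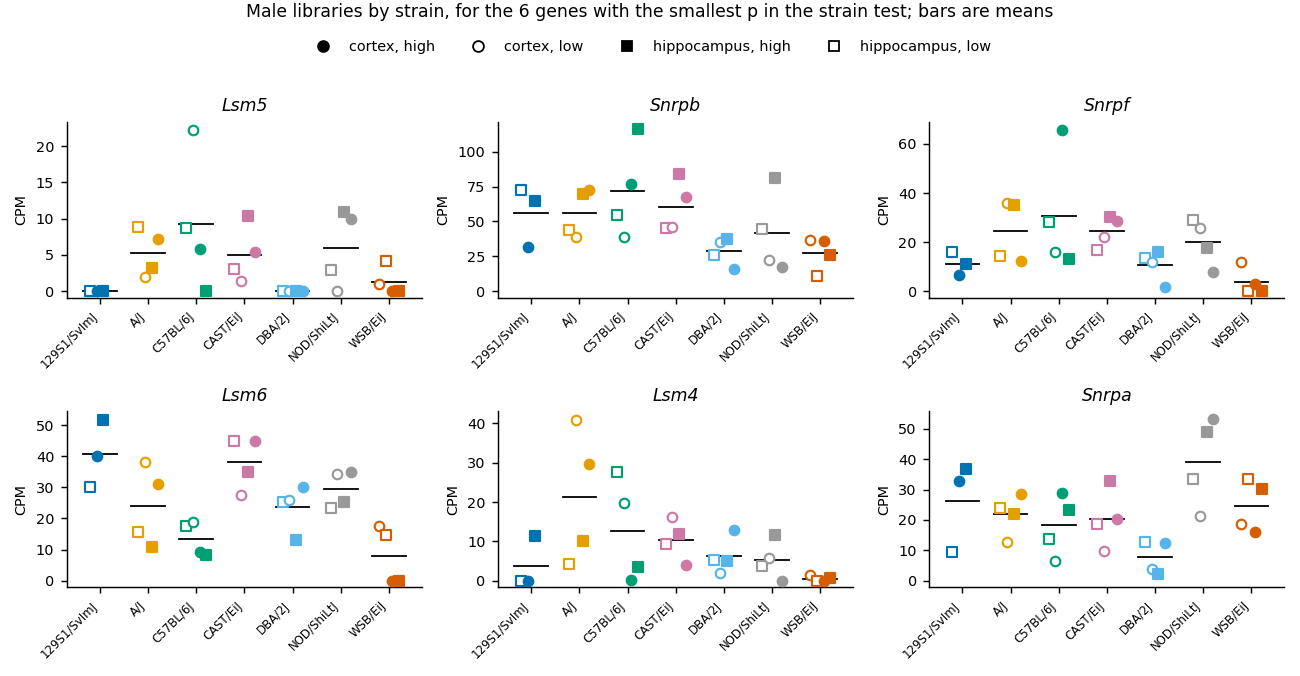
CPM (linear axes) in each male library of the 7 strains for the 6 genes with the smallest p in the strain test, with symbols for region and tag and a bar at each strain's mean. Lsm5 is at 0 in all 129S1/SvImJ and DBA/2J libraries. For Snrpf, Lsm6 and Lsm4 the mean of WSB/EiJ is the lowest, though its libraries overlap those of other strains.

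Each strain was also set against the mean of the other 6 in male libraries. No member was called in any of the 7 contrasts by edgeR, with adjusted p of 0.188 or more for the genes given with a fold. WSB/EiJ had fitted values below 0 for 25 members and above 0 for 8, whereas in the other strains those above 0 numbered 14 (DBA/2J) to 22 (NOD/ShiLtJ). The share of all genes with values below 0 was not taken, so these counts cannot be read as a trait of the members. For 3 members at 0 throughout a strain (Lsm5, Lsm10 and Snrpert) no fold is given. Lsm5 is nevertheless among the members counted at an unadjusted p under 0.05 in A/J, C57BL/6J, CAST/EiJ and NOD/ShiLtJ, and Lsm10 in NOD/ShiLtJ. The other strains are averaged on a log scale and include strains at 0 for these genes. These p-values therefore do not show that the named strain itself differs. In WSB/EiJ, 4 members had an unadjusted p under 0.05 (9.2% of all genes did, 0.804% were called). Snrpf averaged 3.67 CPM against 20.6 in the other strains (log2 -2.24, SE 0.76, adjusted p = 0.188), Lsm4 0.505 against 10.2 CPM (log2 -3.87, SE 1.38) and Lsm6 8.09 against 27.6 CPM (log2 -1.68, SE 0.61). The other member was Snrpb, with 27.2 against 52.3 CPM (log2 -0.88). Lsm14a, Lsm14b and Snrpc had the smallest p among values above 0 (log2 0.30, 0.41 and 0.45). Male WSB/EiJ libraries had totals of 1626534 to 5331064 counts, including both shallowest of all. With all counts thinned to 1626534, no member was called in the WSB/EiJ contrast either. The part of depth in these values was not tested further.

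In A/J, 4 members had an unadjusted p under 0.05 (9.59% of all genes, 0.309% called). Lsm4 was higher on average, 21.2 against 6.62 CPM (log2 2.19, SE 0.83), and Lsm11, a U7 protein, lower, at 0.732 against 8.83 CPM (log2 -3.43, SE 1.25). The A/J values of Lsm11 were 0.659, 0, 2.27 and 0 CPM. Srsf6 averaged 26.7 against 49.7 CPM (log2 -0.86, SE 0.34), with A/J libraries at 21.1, 22.3, 28.7 and 34.9 CPM. Next by p were Snrpd1 (log2 1.53) and Snrpf (log2 0.81) above 0 and Srsf11 (log2 -0.33) below 0. In DBA/2J, 3 members had an unadjusted p under 0.05 (8% of all genes, 0.185% called). Srsf5 averaged 174 against 111 CPM (log2 0.66, SE 0.23), Snrpa 7.76 against 25.04 CPM (log2 -1.64, SE 0.58) and Snrpb 28.5 against 52.0 CPM (log2 -0.80). None of these 3 passed the adjusted threshold, and they do not stand for their roles. In DBA/2J, 4 of 11 SR genes had fitted values above 0 and 7 below. Of the 7 Sm ring genes 2 were above 0 and 5 below, and of the 4 U1 and U2 genes 1 and 3. Next by p in each direction were Srsf6 and Srsf9 (log2 0.44 and 0.46) and Snrpe (log2 -2.18).

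In C57BL/6J, 4 members had an unadjusted p under 0.05 (11.5% of all genes, 0.282% called). Srsf4 averaged 136 against 87.9 CPM (log2 0.64, SE 0.25), Snrpb 71.5 against 44.6 CPM (log2 0.74) and Snrpf 30.7 against 15.9 CPM (log2 1.21). Without the highest C57BL/6J library of each gene these means were 122 CPM for Srsf4, 56.6 CPM for Snrpb and 19.0 CPM for Snrpf. Snrpd1, Snrpc and Lsm6 had the smallest p below 0 (log2 -2.17, -0.91 and -0.86). In NOD/ShiLtJ, also with 4 members (8.32% of all genes, 0.148% called), Snrpa averaged 39.2 against 19.6 CPM (log2 1.08, SE 0.47) and Srsf4 63.4 against 101 CPM (log2 -0.64). Srsf6 and Lsm11 (log2 0.38 and 1.04) and Lsm14a and Srsf3 (log2 -0.26 and -0.23) followed. Srsf4 thus had means on opposite sides of the other strains in C57BL/6J and NOD/ShiLtJ. In 129S1/SvImJ, with 1 member (14% of all genes, 0.309% called), Srsf2 averaged 86.2 against 51.9 CPM (log2 0.78, SE 0.33) and Srsf9 19.9 against 39.1 CPM (log2 -0.93), followed by Lsm6 and Lsm1 (log2 1.03 and 2.52) and by Lsm14b and Snrpf (log2 -0.79 and -0.49). The Lsm1 value rested on 1 of the libraries, since the mean was 8.25 CPM with it and 0.827 CPM without it, against 1.91 CPM in the other strains. In CAST/EiJ the 1 member was Lsm5 (7.91% of all genes, 0.9% called), set against strains at 0 as said above. Its male mean was 5.04 CPM in CAST/EiJ and 3.78 CPM in the other strains. Snrpd2 averaged 23.4 against 8.12 CPM (log2 1.51, unadjusted p = 0.0556 by edgeR) and Lsm6 and Srsf1 had log2 differences of 0.86 and 0.47. Below 0, Srsf11, Srsf5 and Srsf2 had the smallest p (log2 -0.30, -0.18 and -0.15). Male CAST/EiJ libraries had summed pericyte markers of 2330 to 3108 CPM and male WSB/EiJ libraries of 7675 to 9756 CPM, and the part of pericytes in these contrasts was not tested.

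Whether differences by tag or region depended on another factor was tested with interaction terms. None of the 36 members was called or had an unadjusted p under 0.05 in edgeR for tag by region in males (0% of all genes called, 1.92% at an unadjusted p under 0.05), region by origin (0% and 2.32%) or tag by origin in males (0.00687% and 1.26%). The smallest p was that of Snrpa1, the U2 A′ protein, for tag by region (log2 2.43, unadjusted p = 0.0525 by edgeR).

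Other genes of the same pathways were read from lists. Of 30 other snRNP proteins (such as Prpf8 and Sf3b1), 16 measured of 17 snRNP assembly factors (such as Smn1 and Prmt5), 17 SR kinases and SR-related proteins, 23 hnRNP genes and 9 genes of mRNA decapping and decay, none was called for origin, region or any difference among strains. The median log2 differences for origin were 0.08, 0.20, -0.17, 0.06 and 0.11 in that order, beside -0.13 for the 36 members. For region they were -0.02, -0.09, 0.02, 0.03 and -0.08, beside 0.12. For the tag they were 0.16, 0.41, 0.15, 0.05 and 0.11, beside 0.05, and 13 of 16 assembly factors had values above 0.

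The only list genes that passed the test were both hnRNP genes. Hnrnpul2, of the hnRNP U family, was lower in male libraries tagged high, with 101.9 to 218.7 CPM (median 131.1) against 128.5 to 319.8 CPM (median 237.5), means of 141 ± 34.6 and 238 ± 55.8 CPM, and a log2 difference of -0.74 (SE 0.15, adjusted p = 0.0033, edgeR). The ranges overlapped in part. Hnrnpa1, whose protein often acts against SR proteins on exons, was lower in male A/J libraries, with 34.7 ± 11.7 CPM (n = 4, 21.2 to 49.8 CPM) against 84.0 ± 23.3 CPM (n = 23, 40.5 to 131.4 CPM), a log2 difference of -1.24 (SE 0.30, adjusted p = 0.0368, edgeR).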

How the data were processed

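Brain endothelial cells were sorted by flow cytometry, RNA was depleted of ribosomal RNA, and libraries were made with a stranded SMARTer Pico kit and sequenced as single reads. Per the labels, HISAT2 (2.1.0) and SAMtools (1.9) were used with mm10, and the authors deposited raw counts per gene from featureCounts (Subread 1.4.4); the strand setting of the counting is not given in the sources used here. The table holds 54532 genes and 43 libraries. A gene entered the tests if 1 or more libraries reached 0.5 CPM (29120 genes). Counts were TMM-normalized and tested with the quasi-likelihood test of edgeR (4.0.16, R 4.3.3) with a trended dispersion and bias-adjusted deviances, and p-values were adjusted by Benjamini-Hochberg over all genes kept. This deviance setting had been chosen in an earlier analysis of these data, for its false calls in simulated counts, after results under the defaults had been seen. DESeq2 (1.42.0) and other settings were alternatives. The scripts were tested on simulated data.

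The members and gene lists were chosen with earlier results of these data known. Named genes were, per comparison, the 3 members with the smallest p in each direction (6 for the test among strains), members called in any comparison, the highest and lowest member of each role per length, and list genes with an adjusted p under 0.05. Further genes were named after their values were seen: Snrpb for the tag, Lsm5, Lsm6 and the members with copies or at 0 in a strain, and those whose values show a level or an overlap. Copies were found with BLAST (2.17.0) between GENCODE M21 transcripts, with matches of at least 100 bases and 98% identity to the coding sequence. CPM per kb divides by the bases covered by a gene's exons. Library totals of 1626534 to 49372356 counts set the precision. Member sequences are not reported here.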

Additional observations from a re-analysis of the deposited data

How the results depend on the processing

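The count of members called stayed at 0 under every other alternative run for origin, region, tag and strain, except these. It was 1 for origin without CAST/EiJ (Lsm6), 1 for region with edgeR's default deviances (Snrpb), 1 for the tag with DESeq2 (Srsf2) and 2 among strains with DESeq2 (Lsm5 and Srsf6), and the cause was not tested. Leaving out each male library in turn gave 0 to 0 members among strains in 27 fits and 0 to 1 over the 7 strain contrasts, the 1 being Snrpf lower in WSB/EiJ (adjusted p = 0.0257, 265 genes called in all) without its male cortex library tagged low. Over the contrasts, alternatives added after seeing the data also called 1 member: Lsm5 in C57BL/6J with default deviances (adjusted p = 0.0171, 2153 genes called), Lsm11 lower in A/J with counts thinned to 1626534 (adjusted p = 0.0264, 164 genes), Lsm6 lower in WSB/EiJ with all 43 libraries and sex as a covariate (adjusted p = 0.0182, 474 genes) and Snrpf lower in WSB/EiJ in hippocampus only (adjusted p = 0.0423, 108 genes). In the Lsm5 contrast the other strains again include strains at 0. The interactions called 0 in 3 added settings. Directions turned for Snrpd2 by origin (log2 -0.030 in hippocampus only, -0.62 without CAST/EiJ, -0.39 also without the shallowest library) and for Lsm14b by origin without WSB/EiJ (-0.26).

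Counts over all genes moved more than those of the members. For origin (218) they were 6712 with default deviances, 395 with DESeq2, 342 with thinned counts, 121 in males only, 76 in hippocampus only, 40 in cortex only and 6 with counts summed per strain. For region (22) they were 8023 with default deviances, 124 thinned, 57 with strain and sex as covariates, 55 with DESeq2 and 11 without NOD/ShiLtJ. For the tag (279) they were 8296 with default deviances, 638 with DESeq2, 550 with strain and region as covariates, 487 thinned, 151 without C57BL/6J, 143 without A/J, 128 without CAST/EiJ, 26 in cortex only and 8 in hippocampus only. Among strains (480) they were 931 with DESeq2, 779 with default deviances, 738 with all libraries and sex as a covariate, 182 in cortex only and 126 in hippocampus only. Fits with covariates left out 1578 to 5225 genes whose largest fitted count was over 5 times their largest observed count. No paired analysis was possible because the mouse behind each library is not given in the labels, and replicate numbers occur only among female 129S1/SvImJ titles. Levels near 0 in the shallow male libraries limit what can be said of the Lsm rings, Lsm10, Srsf12 and Snrpert.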
